A study of Mus musculus with 3 samples.

Results

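Ionotropic receptors are transmitter-gated ion channels assembled from several subunits, and 60 of the 41388 deposited genes encode their subunits in the mouse. They were taken as the protein-coding genes whose symbol begins with Gabr, Glra, Glrb, Gria, Grid, Grik, Grin, Chrn or Htr3, and 2 further names that are no receptor subunit were left out. The 60 comprise 19 genes of GABA-A receptors, 5 of glycine receptors, 18 of glutamate receptors (4 AMPA, 5 kainate, 7 NMDA and 2 delta), 16 of nicotinic acetylcholine receptors and 2 of 5-HT3 receptors. RNA came from fluorescent cells sorted out of dorsal root ganglia (clusters of sensory neurons along the cord) of C57BL/6 mouse embryos at 14.5 days post coitum. The embryos carried a Ret-EGFP reporter of the Ret receptor tyrosine kinase gene, written in the genotype label as Tg(Ret-EGFP)SJ and in the series text as a heterozygous knock-in. The 3 libraries form 1 group, with no sorted control population: A pooled 100 ganglia of spinal levels T11 to S1 from 5 embryos (3 male, 2 female), B pooled 100 from 6 embryos (2 male, 4 female) and D pooled 80 from 4 embryos (3 male, 1 female). Their total counts were 20181558, 20355302 and 29061086.

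In background terms, GABA-A, glycine, nicotinic and 5-HT3 receptors belong to the Cys-loop superfamily of pentameric channels. GABA-A and glycine receptors pass chloride, and the others pass cations. AMPA, kainate and NMDA receptors are tetrameric glutamate-gated cation channels. Sensory neurons of the dorsal root ganglion carry such receptors on their cell bodies and on their central terminals in the spinal cord, where GABA acts on them and depolarises them because these neurons hold much internal chloride.

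The sorted cells expressed 30 of the 60 genes at a mean level of 1 TPM or more (a transcript share, the count corrected for gene length and library depth), and 10 of them at 10 TPM or more. The level of the middle gene was 0.942 TPM. Of all 21474 protein-coding genes, 55.3% reached 1 TPM and 32.1% reached 10 TPM, with a median of 2.05 TPM. No count was seen in any library for 7 of the 60 genes. Each value below is a level in TPM, given for libraries A, B and D and as mean ± SD (n = 3) where a spread is shown. The SD holds differences between pools of embryos as well as technical noise. Because the RNA came from a mixed sorted population, fewer cells of a type and less RNA per cell cannot be told apart.

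GABA-A genes and 5-HT3 genes held the largest sums. The 19 GABA-A genes summed to 243, 164 and 140 TPM, or 182 ± 54.2 TPM, and the 2 genes of the 5-HT3 receptor to 196, 209 and 136 TPM, or 180 ± 39.2 TPM. Each of these families made up 31.6% of the summed level of all 60 genes, and their ranges overlapped. This likeness depended on the length used: with coding lengths (the longest coding sequence of each gene in GENCODE M21, an alternative chosen after seeing the data) GABA-A genes averaged 191 TPM and 5-HT3 genes 107 TPM. The 5 kainate genes followed with 96.7, 102 and 53.2 TPM. The 16 nicotinic genes summed to 68.3, 61.5 and 32.2 TPM and the 4 AMPA genes to 79.4, 34.9 and 39.2 TPM. The ranges of kainate, nicotinic and AMPA genes overlapped as well. Their order also depended on the length used: with coding lengths kainate genes averaged 36.8 TPM, nicotinic genes 41.7 TPM and AMPA genes 45.7 TPM. Glycine receptor genes stood at 21.2, 19.0 and 13.99 TPM, NMDA receptor genes at 5.08, 7.59 and 4.23 TPM, and the 2 delta receptor genes at 1.58, 1.15 and 1.49 TPM. By transmitter, the 18 glutamate receptor genes together made up 24.5% ± 1.16 of the summed level.

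**Figure D1:**
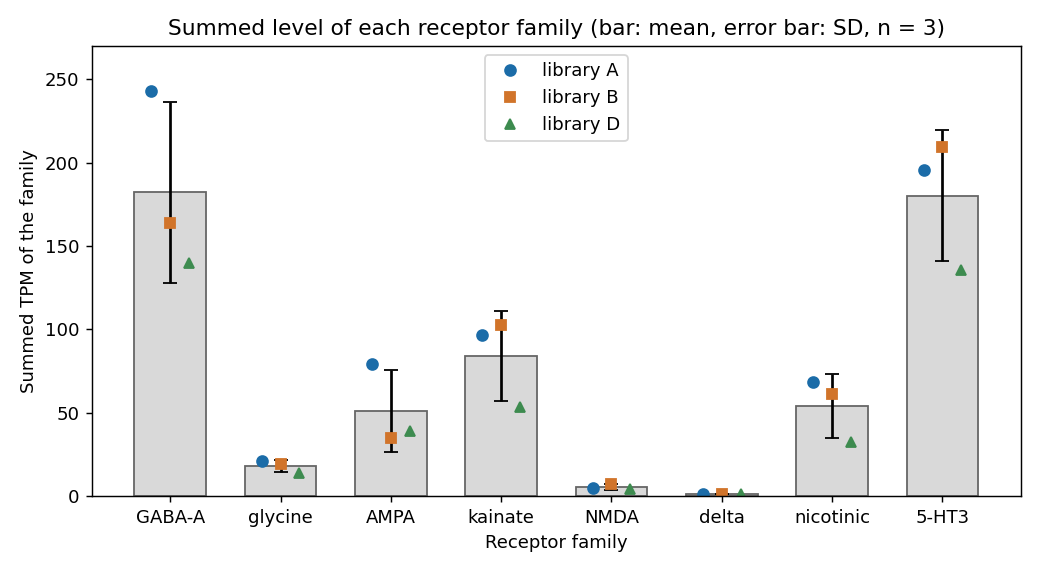
Summed TPM of each receptor family (bars, mean; error bars, SD, n = 3; points, libraries A, B and D). GABA-A and 5-HT3 genes have the highest sums, with means of 182 and 180 TPM, and NMDA and delta receptor genes the lowest, with means of 5.63 and 1.41 TPM.

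Ratios between 2 genes or 2 families were taken inside each library. Flipping their signs in every combination gave a two-sided exact permutation test. With 3 libraries its smallest p is 0.25 (0.28 after Benjamini-Hochberg adjustment over the 20 ratios given here), so no ratio can pass 0.05. Of the 20 ratios, 18 had the same sign in 3 of 3 libraries and therefore this exact p of 0.25, and 2 had mixed signs. The summed level of GABA-A genes exceeded that of glycine receptor genes 9.96-fold (log2 ratio 3.32 ± 0.21), that of AMPA genes 3.71-fold (1.89 ± 0.31), that of nicotinic genes 3.45-fold (1.79 ± 0.35) and that of NMDA genes 32.4-fold (5.02 ± 0.58), each in 3 of 3 libraries. AMPA genes stood 8.73-fold above NMDA genes (log2 3.13 ± 0.89), and NMDA genes 14.8-fold below kainate genes (log2 -3.89 ± 0.32). Nicotinic genes were 3.45-fold below 5-HT3 genes (log2 -1.79 ± 0.28). As CPM, which scales for depth but not for length, the log2 ratio was 1.24 for GABA-A to AMPA, 3.88 for GABA-A to NMDA, -2.46 for NMDA to kainate and -0.91 for nicotinic to 5-HT3 genes, and with coding lengths that of NMDA to kainate genes was -2.65. The log2 ratio of AMPA to kainate genes was -0.76 ± 0.69, with library values of -0.28 (A), -1.55 (B) and -0.44 (D). It was -0.36 without B, and it turned to 0.18 as CPM. The difference between nicotinic and AMPA genes lay within the library spread (log2 ratio 0.11 ± 0.62, exact p = 1.0), and the sign turned without B (-0.25) and as CPM (-0.60).

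**Figure D2:**
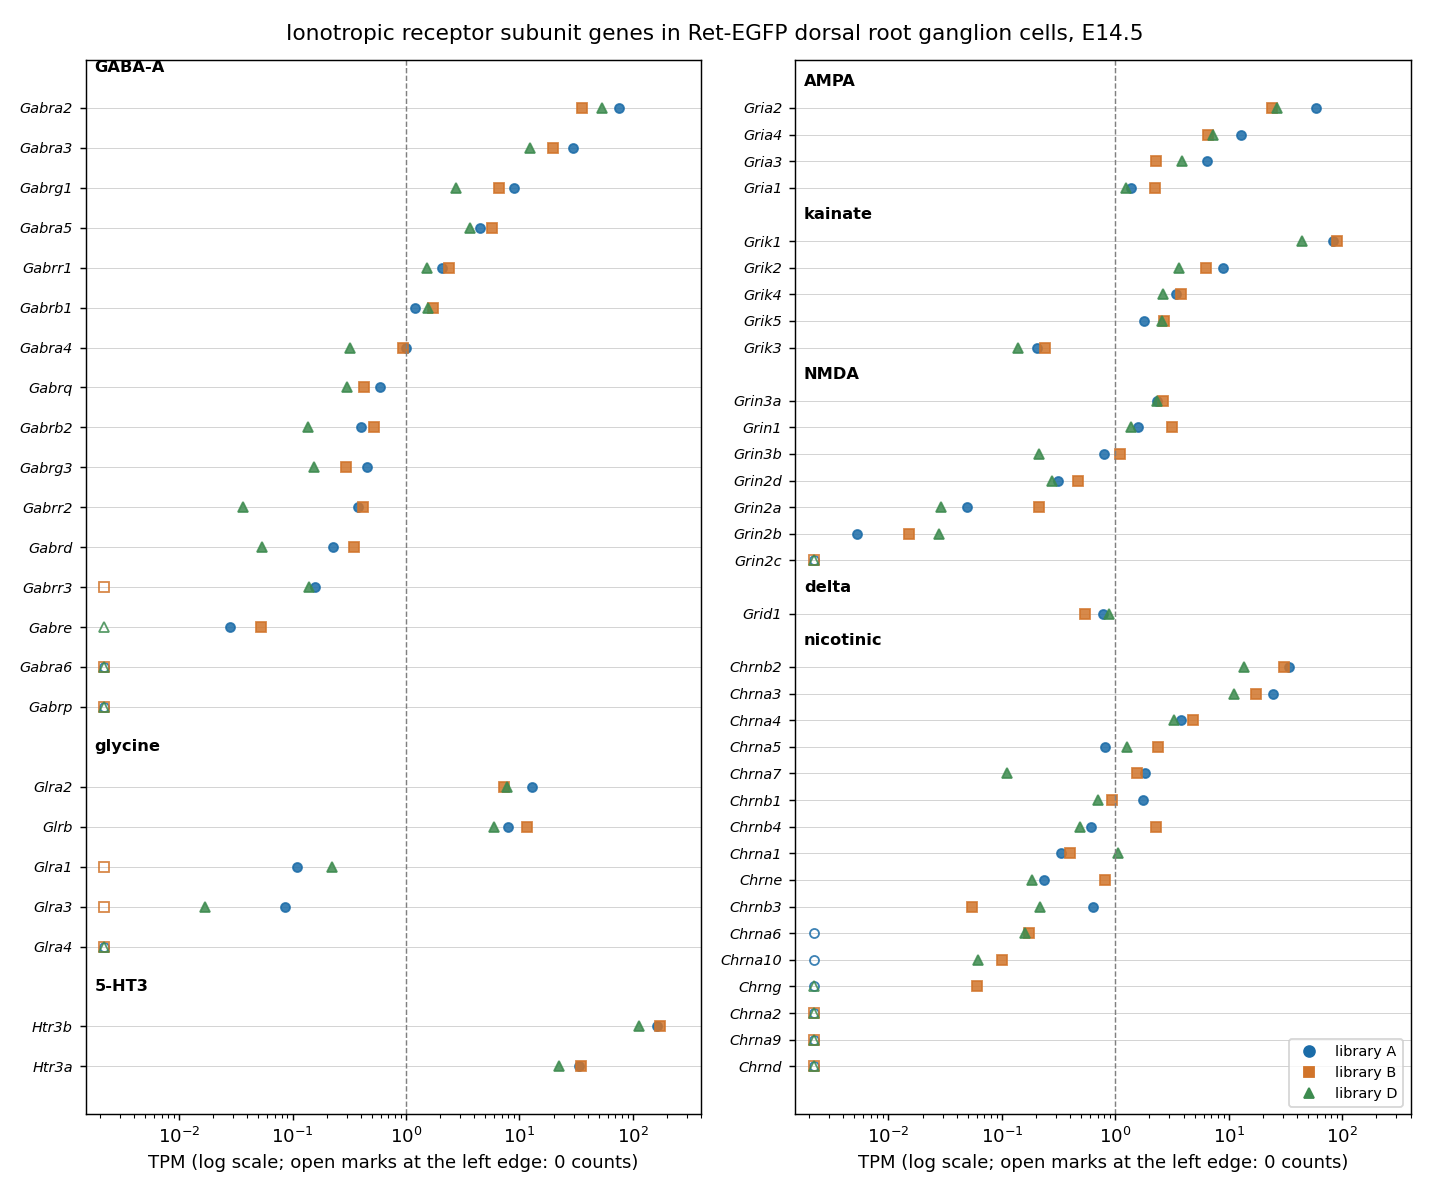
TPM of 56 receptor genes on a log axis, by family and in order of the mean, with 1 mark for each library (A, circles; B, squares; D, triangles). Open marks at the left edge stand for 0 counts and the dashed line for 1 TPM; within most families 1 or a few genes lie far above the rest.

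Among GABA-A genes, those of alpha and gamma subunits held most of the level. A typical synaptic GABA-A receptor holds alpha, beta and gamma subunits. Alpha genes made up 45.6% ± 5.77 of the summed TPM of the family, gamma genes 37.7% ± 5.80 and beta genes 15.0% ± 1.34. Alpha genes led in A and D, and gamma genes in B (39.3% alpha, 43.3% gamma). Gabra2 (ENSMUSG00000000560, chromosome 5, 70961057 to 71095849, minus strand, GRCm38.p2) encodes the alpha2 subunit and stood at 76.0, 35.7 and 53.3 TPM. Gabra3, for the alpha3 subunit, reached 29.9, 19.6 and 12.3 TPM. Gabra2 was highest in A and lowest in B, and Gabra3 highest in A and lowest in D, with no overlap between the 2 ranges.

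Further genes of alpha, beta and gamma subunits were far lower. Gabra5, for the alpha5 subunit of extrasynaptic receptors, stood at 4.47, 5.77 and 3.70 TPM. Within libraries, Gabra2 exceeded Gabra5 11.5-fold (log2 3.52 ± 0.78) and Gabra3 2.72-fold (1.44 ± 0.63, or 0.73 as CPM), each in 3 of 3 libraries. Gabrb1, for the beta1 subunit, stood at 1.20, 1.75 and 1.55 TPM, and Gabrb2, for the beta2 subunit, at 0.401, 0.523 and 0.136 TPM on 19, 26 and 11 counts. Gabrg1, for the gamma1 subunit, stood at 8.96, 6.58 and 2.79 TPM, lowest in D, and Gabrg3, for the gamma3 subunit, at 0.453, 0.295 and 0.155 TPM. The ranges of Gabrb1 and Gabrb2 did not overlap, nor did those of Gabrg1 and Gabrg3.

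Levels of different genes depend on the length they are divided by. With coding lengths Gabra2 averaged 32.9 TPM in place of 55.0, and Gabra5 2.99 in place of 4.65.

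Of the other GABA-A genes, Gabrr1, which encodes a rho subunit of the kind known from the retina, reached 2.08, 2.42 and 1.52 TPM (36, 44 and 45 counts). Gabra4 averaged 0.751 TPM, and the 5 genes for the delta, epsilon and theta subunits and the other rho subunits lay between 0.0270 and 0.439 TPM. Gabra6, which in the brain is a gene of cerebellar granule cells, and Gabrp had 0 counts in every library. A count of 0 allows up to 3 counts, which is at most 0.159 TPM for Gabra6 and 0.117 TPM for Gabrp. Intervals of this kind cover counting error only, because the reads carry no molecular identifiers.

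The promoters of Gabra2 and Gabra6 are shown because they belong to the 2 ends of this range. Promoter windows of RefSeq (GRCm38.p6, from 250 bases before a gene's start to 50 after it) matched 42 of the 60 genes. Gabra2 lies at chr5:71095800-71096099 and Gabra6 at chr11:42321023-42321322, both on the minus strand and written 5′ to 3′ with CG dinucleotides in capitals.
Gabra2: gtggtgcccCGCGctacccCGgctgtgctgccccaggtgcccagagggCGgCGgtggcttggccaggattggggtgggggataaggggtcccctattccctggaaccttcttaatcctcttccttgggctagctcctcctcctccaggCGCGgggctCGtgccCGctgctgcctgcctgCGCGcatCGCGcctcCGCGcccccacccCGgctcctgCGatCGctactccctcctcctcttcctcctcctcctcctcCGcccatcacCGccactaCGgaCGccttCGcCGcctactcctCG
Gabra6: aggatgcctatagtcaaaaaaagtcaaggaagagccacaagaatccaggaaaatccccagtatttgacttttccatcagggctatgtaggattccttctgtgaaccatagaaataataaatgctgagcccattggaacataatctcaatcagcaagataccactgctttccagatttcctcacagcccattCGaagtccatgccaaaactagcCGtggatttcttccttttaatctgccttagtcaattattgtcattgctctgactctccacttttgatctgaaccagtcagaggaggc
The Gabra2 window held 25 CG dinucleotides and 70.0% G or C, and the Gabra6 window 2 and 42.0%. Over the matched genes, the median was 15.5 CG dinucleotides for the 22 genes of at least 1 TPM and 6.5 for the 20 genes below it, against 7 for all 32851 windows of the table. The 2 ranges overlapped (0 to 42 and 1 to 50), and no test was made. The GC box GGGCGG, searched on both strands, stood in the windows of 47.6% of the 42 genes and in 35.7% of all windows. The TATA motif TATAAA stood in 11.9% and 13.6%, and the cyclic AMP response element TGACGTCA in none of the 42 and in 1.79% of all windows.

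Many of these genes lie beside relatives on the chromosome. With a gap of at most 1 Mb between neighbours, 29 of the 60 genes formed 11 groups. On chromosome 5, in the order Gabrg1, Gabra2, Gabra4 and Gabrb1, Gabra2 took 86.8% of the summed mean TPM, and on the X chromosome (Gabre, Gabra3, Gabrq) Gabra3 took 97.8%. The leading gene was thus an alpha gene in both groups, with a gamma or epsilon gene on one side. On chromosome 4, Gabrr1 took 87.9% of the pair of rho genes Gabrr2 and Gabrr1. Among nicotinic genes, Chrna3 took 87.0% of the group Chrna5, Chrna3 and Chrnb4 on chromosome 9. Gria2 and Glrb, which belong to different families, are neighbours on chromosome 3 with a gap of 40.8 kb.

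**Figure D3:**
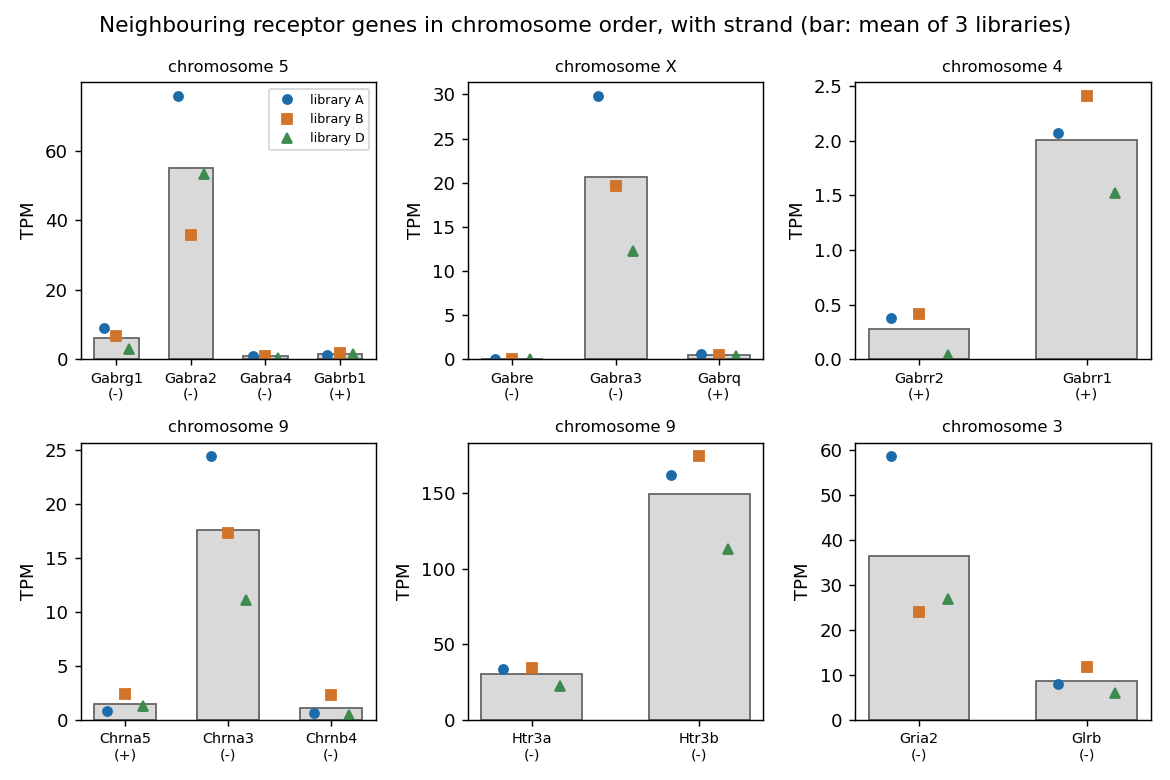
TPM of 6 groups of neighbouring receptor genes, in chromosome order with the strand in brackets (bars, mean; points, libraries A, B and D; each panel has its own scale). In each panel 1 gene holds over 80% of the level, among them Gabra3 with 97.8% and Chrna3 with 87.0%.

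Partners of GABA-A and glycine receptors were mostly expressed: 17 of 19 listed genes reached 1 TPM, with a median of 13.1 TPM. Gabarap, for a trafficking protein that binds GABA-A receptors, was the highest (770, 958 and 1031 TPM), followed by its relative Gabarapl1 (472, 396 and 273 TPM) and by Gphn (94.8, 71.6 and 53.1 TPM), which encodes the scaffold gephyrin. Gabarap and Gabarapl1 also act in autophagy. The 2 genes below 1 TPM were the glycine transporter genes Slc6a9 and Slc6a5. Slc6a5, a marker of glycinergic spinal neurons, had 0, 2 and 0 counts.

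Glycine receptors were represented by 1 alpha gene and the beta gene. Glra2, whose alpha2 subunit is known as the main alpha form of the immature nervous system, stood at 13.0, 7.25 and 7.73 TPM. Glrb, for the beta subunit that anchors the receptor to gephyrin, stood at 7.98, 11.8 and 6.02 TPM. Their order was not stable: the log2 ratio of Glrb to Glra2 ran -0.70 (A), 0.70 (B) and -0.36 (D) (mean -0.12 ± 0.73, exact p = 0.75), and its mean turned to 0.17 without A. Glra1, the main adult alpha gene, had 2, 0 and 7 counts, Glra3 had 3, 0 and 1, and Glra4 had none, which allows at most 0.197 TPM.

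Both genes of the 5-HT3 receptor were expressed, and Htr3b was the highest of all 60 genes. Htr3a (ENSMUSG00000032269, chromosome 9, 48899214 to 48911099, minus strand) encodes the subunit that can form channels alone and stood at 33.5, 34.6 and 22.5 TPM. Htr3b (ENSMUSG00000008590, chromosome 9, 48935008 to 48964990, minus strand), whose subunit needs the 5-HT3A subunit for function, stood at 162, 175 and 113 TPM (150 ± 32.6 TPM), above 94.7% of protein-coding genes by mean TPM. The log2 ratio of Htr3a to Htr3b took the values -2.28 (A), -2.33 (B) and -2.33 (D) (mean -2.31 ± 0.03, 3 of 3 libraries, exact p = 0.25), so Htr3a was 4.97-fold lower. The SD of this ratio was the smallest of the 20. With coding lengths Htr3a averaged 14.5 TPM and Htr3b 93.0 TPM. No other 5-HT3 subunit gene was found by the rule.

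The promoter window of Htr3b is shown as that of the highest matched gene, at chr9:48964941-48965240 on the minus strand, 5′ to 3′ with CG dinucleotides in capitals.
Htr3b: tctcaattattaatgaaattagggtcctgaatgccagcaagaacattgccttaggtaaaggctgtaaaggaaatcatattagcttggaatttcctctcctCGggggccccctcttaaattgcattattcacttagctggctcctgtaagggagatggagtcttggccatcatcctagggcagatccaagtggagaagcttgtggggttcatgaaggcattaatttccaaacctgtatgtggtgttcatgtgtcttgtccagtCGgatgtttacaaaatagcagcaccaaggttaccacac
It held 2 CG dinucleotides, as many as that of the silent Gabra6, and 44.3% G or C, and contained neither a GC box nor a TATA motif as spelled above.

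All 4 AMPA receptor genes reached 1 TPM, and Gria2 made up 70.2% ± 3.14 of their summed level. Gria2 (ENSMUSG00000033981, chromosome 3, 80684936 to 80802791, minus strand) encodes GluA2, the subunit that makes AMPA receptors poorly permeable to calcium once its RNA is edited, and stood at 58.6, 23.9 and 26.8 TPM. Gria4, for GluA4, stood at 12.9, 6.54 and 7.28 TPM, Gria3, for GluA3, at 6.46, 2.27 and 3.84 TPM, and Gria1, for GluA1, at 1.38, 2.22 and 1.25 TPM. Gria2, Gria3 and Gria4 were each highest in A and lowest in B, while Gria1 was highest in B. Gria2 exceeded Gria4 3.94-fold (log2 1.98 ± 0.18), Gria3 8.74-fold (3.13 ± 0.30) and Gria1 21.4-fold (4.42 ± 0.99), each in 3 of 3 libraries.

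The editing site of GluA2, the Q/R site, is a single codon in the pore loop that the enzyme ADAR2 changes in RNA. The stretch around it is shown for Gria2, for Gria4, which is not edited there, and for the kainate gene Grik2, which is edited, from GENCODE M21 transcripts (GRCm38, minus strand for all 3, 5′ to 3′, with the codon of the site in capitals).
Gria2: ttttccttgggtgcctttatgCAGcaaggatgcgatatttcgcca
Gria4: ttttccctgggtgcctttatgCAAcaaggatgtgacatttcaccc
Grik2: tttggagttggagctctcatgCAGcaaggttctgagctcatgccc
The Gria2 codon lies at chr3:80706911-80706913 in coding exon sequence (exon 11 of 16), the Gria4 codon at chr9:4464137-4464139 (exon 12 of 17) and the Grik2 codon at chr10:49244329-49244331 (exon 12 of 16, with the stretch spanning 2 exons). Gria2 and Grik2 share the codon CAG, and Gria4 has CAA. Counts per gene do not show whether a transcript was edited. Adarb1, the gene of ADAR2, was expressed at a low level of 1.63, 2.18 and 1.24 TPM.

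The promoter window of Gria2, at chr3:80802786-80803085 on the minus strand, is shown because it was the single window among the 42 with GGACAGCG, the right-hand block of the RE1 element bound by the neuronal repressor REST (here on the opposite strand, CG dinucleotides in capitals).
Gria2: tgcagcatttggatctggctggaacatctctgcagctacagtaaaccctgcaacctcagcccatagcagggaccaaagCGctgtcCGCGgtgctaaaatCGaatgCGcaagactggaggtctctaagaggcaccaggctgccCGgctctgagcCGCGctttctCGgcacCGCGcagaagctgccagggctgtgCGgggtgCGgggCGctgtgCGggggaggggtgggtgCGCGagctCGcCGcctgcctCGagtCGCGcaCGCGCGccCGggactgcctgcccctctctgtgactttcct
These letters stood in 1.26% of all windows, and a match is a description of the sequence alone.

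Of 28 listed partners of AMPA receptors, 22 reached 1 TPM, with a median of 8.54 TPM. The 3 highest were Cnih1 (525, 581 and 636 TPM), a cornichon gene of export from the endoplasmic reticulum, Olfm1 (130, 210 and 225 TPM), for a secreted olfactomedin, and Cpt1c (93.2, 78.4 and 50.6 TPM), for a neuronal protein of the endoplasmic reticulum that binds GluA1. Among the auxiliary TARP subunits, Cacng4 reached 23.1, 27.6 and 28.5 TPM and Cacng5 20.3, 17.8 and 11.7 TPM. Cacng2, the gene of stargazin, stayed at 0.829 ± 0.209 TPM, and Cacng7 and Cacng8 had 0 counts in every library.

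Kainate receptors were dominated by Grik1, which made up 85.2% ± 2.08 of the family's summed level. Grik1 (ENSMUSG00000022935, chromosome 16, 87896196 to 88056176, minus strand) encodes GluK1, the kainate receptor subunit long known from dorsal root ganglion neurons, and stood at 82.4, 89.5 and 44.3 TPM. Grik2, for GluK2, stood at 8.94, 6.25 and 3.63 TPM, and Grik4, for the high-affinity subunit GluK4, at 3.41, 3.79 and 2.62 TPM. Grik5, for the other high-affinity subunit GluK5, stood at 1.79, 2.68 and 2.56 TPM, and Grik3 averaged 0.194 TPM (14, 17 and 16 counts).

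Within libraries, Grik5 was 29.8-fold below Grik1 (log2 -4.90 ± 0.72) and 2.55-fold below Grik2 (-1.35 ± 0.92, with A at -2.32, B at -1.22 and D at -0.51), and Grik1 was 11.7-fold above Grik2 (3.55 ± 0.32), each in 3 of 3 libraries. The level of Grik1 depended on its length: with its coding length it averaged 26.8 TPM in place of 72.1, and the family 36.8 TPM in place of 84.1. The log2 ratio of Grik1 to Grik2 was then 2.09, and 2.15 as CPM, and that of Grik5 to Grik2 was -2.57, and -2.46 as CPM. Of 24 listed scaffold and kainate receptor partners 17 reached 1 TPM, with a median of 2.07 TPM. The 3 highest were Cbln2 (70.3, 75.7 and 73.2 TPM), for a secreted synapse organiser that binds delta receptors, Dlgap4 (29.4, 37.2 and 26.5 TPM), for a postsynaptic scaffold protein, and Neto2 (14.5, 14.6 and 12.8 TPM), for an auxiliary subunit of kainate receptors.

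NMDA receptor genes were low, and those of GluN2 subunits lowest. GluN1, the obligatory subunit, comes from Grin1, which stood at 1.58, 3.16 and 1.36 TPM, highest in B. Grin1 shares 13.5% of its exon length with the antisense gene Grin1os, which had at most 2 counts. Grin3a, for the glycine-binding subunit GluN3A of immature neurons, stood at 2.33, 2.63 and 2.32 TPM, and Grin3b averaged 0.705 TPM. Grin3b shares 32.1% of its exon length with Tmem259 on the opposite strand, so its 20, 29 and 9 counts may not be separable from that gene.

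The 4 GluN2 genes, whose subunits bind glutamate, summed to 0.370, 0.700 and 0.334 TPM, on 17, 34 and 32 counts. Grin2d held most of these (14, 22 and 21 counts), followed by Grin2a (2, 9 and 2) and Grin2b (1, 3 and 9), the main GluN2 gene of the embryonic forebrain. Grin2c had 0 counts, which allows at most 0.0786 TPM. All ratios listed with Grin2b were left out, because it had fewer than 10 counts. GluN1, GluN2 and GluN3 genes made up 35.0% ± 5.79, 8.13% ± 0.987 and 56.9% ± 6.76 of the family's summed level.

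Neither delta receptor gene reached 1 TPM on average. Grid1, for the delta1 subunit, stood at 0.779, 0.536 and 0.888 TPM (36, 26 and 70 counts), lowest in B.

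Nicotinic receptors were carried by 1 beta and 1 alpha gene of the neuronal type. Chrnb2 (ENSMUSG00000027950, chromosome 3, 89753448 to 89764632, minus strand), for the beta2 subunit, stood at 33.8, 30.5 and 13.6 TPM. Chrna3 (ENSMUSG00000032303, chromosome 9, 55011343 to 55026559, minus strand), for the alpha3 subunit of ganglionic receptors, stood at 24.5, 17.3 and 11.1 TPM, and the ranges of both overlapped. Chrna4, which pairs with beta2 in the most common brain receptor, reached 3.79, 4.83 and 3.30 TPM.

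Chrna5, for an accessory subunit, stood at 0.819, 2.38 and 1.27 TPM, and Chrnb4, for the beta4 subunit that joins alpha3 in autonomic ganglia, at 0.605, 2.31 and 0.488 TPM. Both were highest in B, and Chrnb4 averaged 0.547 TPM without B. Chrnb2 exceeded Chrnb4 27.4-fold (log2 4.78 ± 1.04, or 5.40 as CPM, 3 of 3 libraries). Chrna7, whose subunit forms receptors alone, stood at 1.83, 1.56 and 0.111 TPM (29, 26 and 3 counts) and was low in D alone, so its ratio to Chrna3 was not computed. Chrna6, Chrna10 and Chrnb3 each stayed below 1 TPM, and Chrna2 and Chrna9 had no counts.

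The 5 muscle-type nicotinic genes summed to 2.34, 2.22 and 1.94 TPM. Chrnb1 stood at 1.77, 0.943 and 0.702 TPM, highest in A. Chrna1 stood at 0.331, 0.401 and 1.06 TPM (11, 14 and 60 counts), highest in D. Chrne averaged 0.411 TPM, Chrng 0.0201 TPM, and Chrnd had 0 counts, which allows at most 0.120 TPM. Beside these values, 5 of 7 listed skeletal muscle markers stayed under 1 TPM, and the muscle genes Myog and Myh8 had no counts in any library. The summed level of the 7 was 18.2, 19.2 and 22.5 TPM, nearly all from Mylpf and Tnnt1. Of 17 listed partners, 14 reached 1 TPM. The 3 highest were Ache (38.1, 86.0 and 17.5 TPM), for acetylcholinesterase, Rapsn (24.7, 33.1 and 46.4 TPM), for the receptor-clustering protein rapsyn, and Ly6h (23.9, 48.1 and 12.1 TPM), for a membrane-anchored modulator of nicotinic receptors. Chat, for the enzyme that makes acetylcholine, had at most 3 counts.

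**Figure D4:**
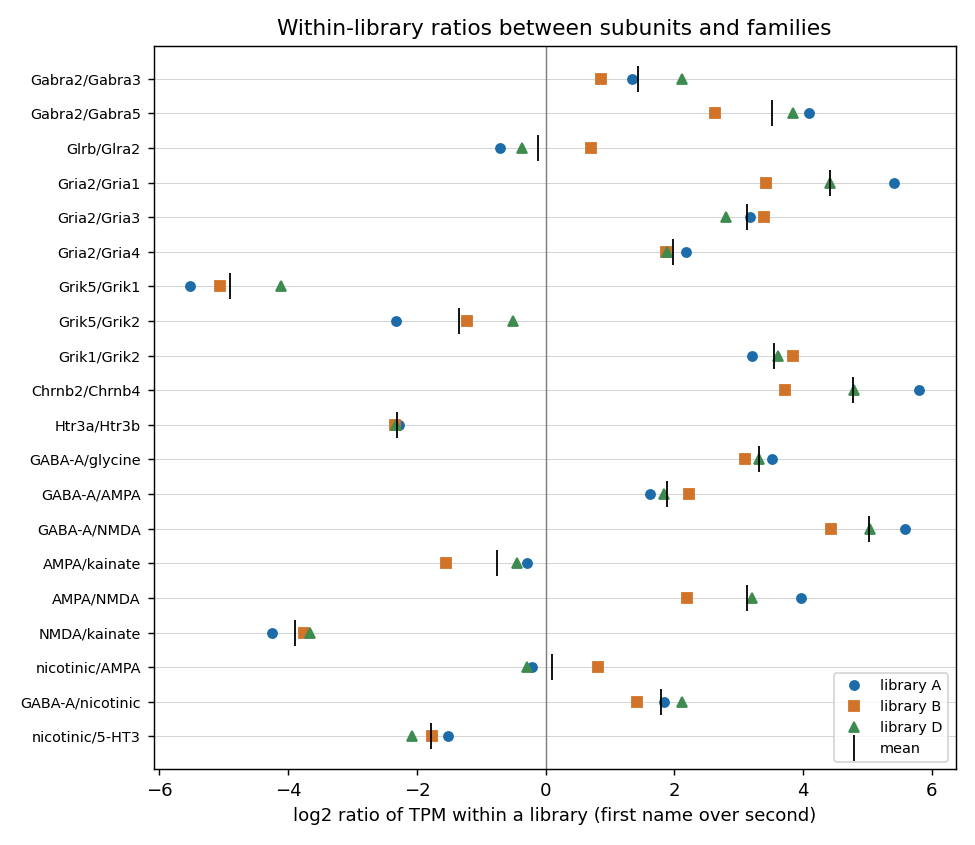
Within-library log2 ratios of TPM for 20 pairs of genes or families with at least 10 counts in every library (first name over second; marks, libraries A, B and D; bar, mean). The ratio of Htr3a to Htr3b is the tightest, from -2.33 to -2.28, and Glrb/Glra2 and nicotinic/AMPA lie on both sides of 0.

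Variation between the 3 libraries was tested across all genes with edgeR's goodness-of-fit test, which asks which genes vary more than others of their level. Of the 37 receptor genes that passed the filter on low counts, 0 were called after Benjamini-Hochberg adjustment, against 24 of all 13530 genes tested (0.177%). Chrna7, with 29, 26 and 3 counts, did not pass this filter. With every gene of at least 1 count kept, 0 of 53 receptor genes were called, against 35 of 24745 genes. At an unadjusted p under 0.05, 2 of 37 genes passed, or 5.41%, against 6.11% of all genes. These were Chrnb4, high in B (16, 64 and 22 counts, edgeR adjusted p = 0.65), and Chrna1, high in D (edgeR adjusted p = 0.73). DESeq2 marked 0 of 53 receptor genes with counts as outliers in dispersion, against 18 of all 24745 genes with counts. On simulated counts the edgeR test found 0% of 67 genes given a 2-fold change in 1 library. It found 20.9% of 67 with a 4-fold and 89.4% of 66 with an 8-fold change. The changed genes were drawn only from those above a cutoff in mean CPM, which receptor genes of low counts such as Chrnb4 do not reach. These rates therefore do not hold for such genes. Most differences of the sizes seen here were not detectable at this depth and n. The count over all genes was 7 of 14070 without A and 2 of 14212 without B. Of the receptor genes, 0 of 37 and 0 of 38 were called.

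Gria2 and Gria3 came next: Gria2 had 3093, 1324 and 2413 counts (log2 CPM 1.02 above the mean of the other libraries in A, edgeR adjusted p = 0.88) and Gria3 483, 178 and 490 counts (log2 CPM -1.27 relative to the mean of the others in B, edgeR adjusted p = 0.86). Of the 37 genes, 27 had their lowest TPM in D. The same share was not computed over all genes, so this count alone does not set the receptor genes apart. Scaling by TMM (edgeR's trimmed mean of M-values) in place of TPM moved the median of all tested genes by -0.13 in A, -0.10 in B and 0.21 in D on the log2 scale. After that scaling, the median log2 CPM of the 37 genes in D minus the mean of the others was -0.22, against -0.01 over all genes tested, and 10 of the 37 lay above 0 in D (27.0%, against 49.4% of all genes tested).

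Summed levels of markers of other cells varied between the libraries. After adjustment, the edgeR goodness-of-fit test called 1 of 6 tested mesenchymal genes and 2 of 4 tested erythroid genes. It called 0 of the glial, macrophage and sympathetic neuron genes tested. The summed level of 6 glial genes was 487, 783 and 878 TPM, that of 6 mesenchymal genes 17.4, 67.4 and 18.2 TPM and that of 5 erythroid genes 84.7, 74.8 and 304 TPM. The 5 sympathetic neuron genes summed to 36.8, 30.1 and 18.5 TPM, most of it Slc18a2, and 5 macrophage genes to 17.2, 11.1 and 6.93 TPM. Of 7 spinal cord genes none reached 1 TPM, and Mnx1, Olig2 and Lbx1 had no counts. The 7 sensory neuron markers, among them Tubb3 and Isl1, summed to 28509, 23462 and 25970 TPM. The part of these cells in the receptor levels was not tested.

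**Figure D5:**
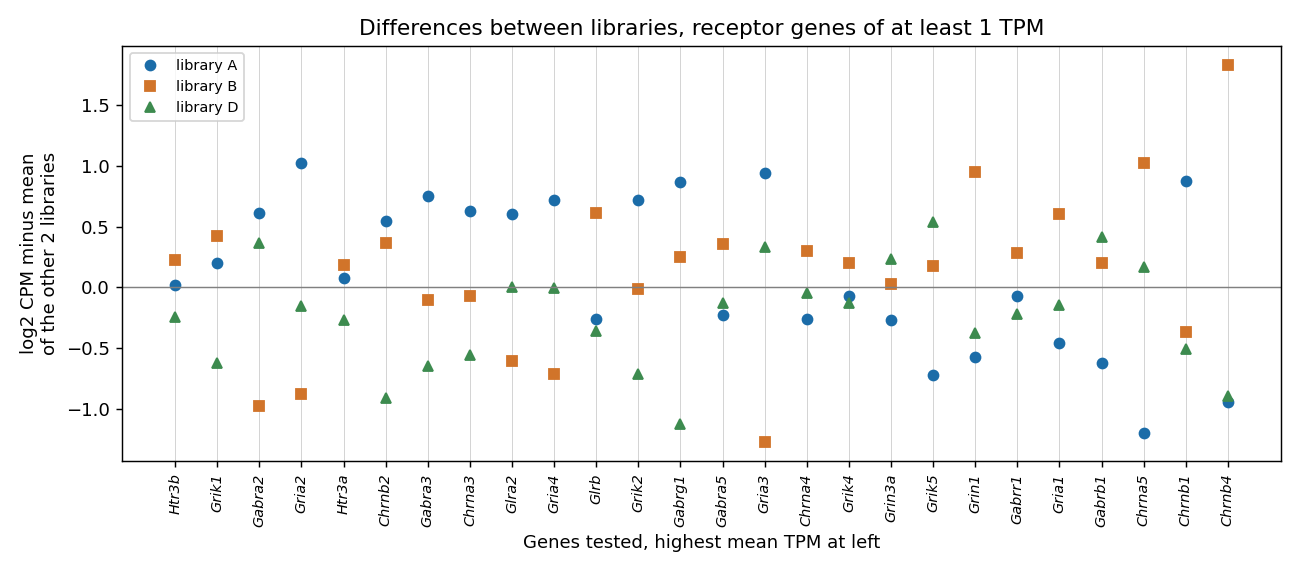
Log2 CPM in each library minus the mean of the other 2, for tested receptor genes of at least 1 TPM, with the highest mean at the left. Chrnb4 lies at 1.83 in B and Gria2 at 1.02 in A; none of the genes plotted passes the adjusted threshold of the edgeR goodness-of-fit test.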

How the data were processed

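The authors deposited, for each of 3 libraries, whole-number counts per Ensembl gene with exon coordinates and gene length. CPM and RPKM were also deposited; both followed from the counts (largest difference 4.7e-11 CPM and 6.4e-12 RPKM) and were not used further. The submitters' processing notes name featureCounts 1.4.5, Subread and build GRCm38.p2; the use of strand and of reads with several matches is not given in the sources used here. Per the labels' protocols, 10 ng of RNA was amplified and libraries had 12 PCR cycles.

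Symbols of 40340 genes came from GENCODE M21. TPM was computed from counts and deposited lengths over all genes. Ratios needed 10 counts of both genes in every library. edgeR 4.0.16 in R 4.3.3 (TMM, filterByExpr, intercept-only fit, trended dispersion, goodness of fit with 2 degrees of freedom, Benjamini-Hochberg over all genes) was tested on simulated data and set beside DESeq2 1.42.0. With 1 group, no quasi-likelihood test could be made. Python 3.11.15, scipy 1.17.1 and matplotlib 3.10.9 did the rest. Every receptor gene with a mean of 1 TPM or more was named with its values, with those in listed pairs, those with 0 counts and the 3 highest of each partner list; other genes were named after their values were seen. Some receptor genes, with the ratios that need them, are not reported here by name; sums and counts over receptor genes include them. All genes and lists were chosen with earlier results of these data known. Counts of the closest libraries differed by 50.2 times the variance of counting error.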

Additional observations from a re-analysis of the deposited data

How the results depend on the processing

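No paired analysis was possible because the 3 libraries form 1 group. With coding lengths, an alternative chosen after seeing the data, the summed level was 107 TPM for 5-HT3, 36.8 for kainate, 13.9 for glycine and 1.65 for delta receptor genes, against 180, 84.1, 18.1 and 1.41 TPM with deposited lengths. That of GABA-A genes was 191 TPM, against 182. The log2 ratio of AMPA to kainate genes turned to 0.18 as CPM and 0.26 with coding lengths, and that of nicotinic to AMPA genes to -0.60 and -0.095. These changes follow from the length each gene is divided by. Leaving out 1 library at a time, Glrb to Glra2 ran from -0.53 (without B) to 0.17 (without A) and nicotinic to AMPA from -0.25 (without B) to 0.30 (without D). The number of genes varying between libraries was 57 with each library's length trend removed and ran from 2 (without B) to 27 (without D), against 24; the cause was not tested. The number of receptor genes at the 1 TPM level ran from 28 to 30 without 1 library, and was 35 at 0.5 TPM and 24 at 2 TPM.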
